A study of Mus musculus with 18 samples.

Results

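The HoxC cluster genes were followed across 18 arrays of Ezh2-conditional C2 iMEFs, immortalized mouse embryonic fibroblasts in which the gene for the histone methyltransferase Ezh2 can be deleted with tamoxifen. The members were the Hoxc genes read by a probe set with 1 gene symbol, 9 of the 18820 genes measured: Hoxc4, Hoxc5, Hoxc6, Hoxc8, Hoxc9, Hoxc10, Hoxc11, Hoxc12 and Hoxc13. Each of them was read by 1 probe set. In RefSeq (GRCm38.p6) they lie on the plus strand of chromosome 15 between 102921131 and 103036856, a stretch of 115726 bases that starts with Hoxc13 and ends with Hoxc4.

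All groups shared 1 clone, grown from a single cell of a c-Myc-transformed pool carrying 1 floxed and 1 deleted Ezh2 allele and a tamoxifen-activated Cre (CreERT2) at the ROSA26 locus. The time course held 8 arrays, 2 each of cells given vehicle (ethanol) and of cells at day 5, 18 and 32 after tamoxifen. The rescue experiment held 10 arrays, 2 each of control cells, Ezh2 null cells (Ezh2 -/-), Ezh1 pre-rescue and Ezh2 pre-rescue cells, which had received a Flag-tagged Ezh1 or Ezh2 retrovirus before the endogenous gene was deleted, and Ezh2 post-rescue cells, which had received Ezh2 after the deletion. The comparisons asked how the transcriptome moved once Ezh2 was lost, and whether an exogenous enzyme prevented or reverted the change. The labels give no time after tamoxifen for the rescue experiment, and the study calls the 2 replicates of a group biological, without saying how they were grown apart within the 1 clone.

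Hox genes encode homeodomain transcription factors that give cells their position along the body axis and the limbs. In each of the mammalian clusters the genes lie in the order of the body regions that use them, with low paralogue numbers toward the head and high ones toward the tail. Polycomb-repressive complex 2 (PRC2), whose catalytic subunit is Ezh2 or its relative Ezh1, methylates Lys27 of histone H3 (H3K27me3), and Hox clusters are classical targets of this silencing mark. Cultured fibroblasts keep the Hox code of the site they came from, so that part of a cluster is active and part silent in a given line.

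Several noncoding RNA genes lie within the HoxC cluster, and the array held probe sets for 2 microRNA genes among them: Mir196a-2 between Hoxc10 and Hoxc9, and Mir615 within Hoxc5. Hotair, Gm36878 and Gm29905 were not analysed here. The mature sequences of both microRNAs (RefSeq, GRCm38.p6) are shown because their genes lie among the HoxC genes and the array holds a probe set for each. Capitals mark the seed, bases 2 to 8, with which a microRNA pairs to its targets.
miR-196a-5p, chr15:102973365-102973386, plus strand: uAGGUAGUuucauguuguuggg
miR-196a-2-3p, chr15:102973401-102973422, plus strand: uCGGCAACaagaaacugccuga
miR-615-5p, chr15:103014926-103014947, plus strand: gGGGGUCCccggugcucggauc
miR-615-3p, chr15:103014969-103014990, plus strand: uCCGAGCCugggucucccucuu
The seed of miR-196a-5p is the same whether it comes from the HoxC cluster or from Mir196a-1 in the HoxB cluster on chromosome 11. No 2 of the 4 sequences shown share a seed.

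Among the HoxC genes, a promoter sequence was at hand for Hoxc4, which was lower after Ezh2 loss in both experiments. It lies at chr15:103034145-103034444 on the plus strand, inside the Hoxc4 gene as RefSeq draws it, and therefore belongs to an internal start. CG dinucleotides, where DNA methylation can occur, are in capitals.
Hoxc4 promoter: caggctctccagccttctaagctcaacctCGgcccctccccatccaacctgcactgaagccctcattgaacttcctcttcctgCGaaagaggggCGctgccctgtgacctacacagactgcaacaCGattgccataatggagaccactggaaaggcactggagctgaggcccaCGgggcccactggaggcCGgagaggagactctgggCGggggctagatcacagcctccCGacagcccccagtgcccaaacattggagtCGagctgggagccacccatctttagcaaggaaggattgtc
It held 9 CG dinucleotides, where the median over 32851 promoters of the same length was 7 and 45.8% had at least as many. The PBX-HOX motif TGATTNAT, searched on both strands, had 0 matches (3.22% of promoters held it), and TATAAA had 0 matches (13.6% held it). The letters are a description of this window.

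Ezh2 itself came first as a check of the labels. Its probe set did not fall: the log2 values were 9.37 and 9.43 in vehicle cells and 9.73 and 9.81 at day 32, and 10.36 and 10.56 in control cells against 10.46 and 10.48 in Ezh2 null cells. The probe set therefore gives no check of the deletion. It did read the exogenous gene, with 12.26 and 11.84 where Ezh2 had been given before the deletion and 12.55 and 12.12 where it came later, and the Ezh1 probe set read 11.68 and 11.85 in Ezh1 pre-rescue cells against 9.50 and 9.82 in control cells. Replicates correlated at 0.998 to 0.999 in the time course and 0.994 to 0.998 in the rescue experiment. Of 10 fibroblast markers, 9 were above the median gene on every array, whereas 0 of 4 endothelial and 0 of 5 epithelial markers were, and 1 of 5 blood (Cd68), 1 of 3 neuronal (Map2) and 1 of 4 pluripotency markers (Sox2) were. Some markers changed too. Of the fibroblast markers 5 rose at day 5, 2 rose and 3 fell at day 18, and 1 rose and 3 fell at day 32 (group means of the list 9.2 to 9.63). Of all genes, 11.0%, 15.2% and 18.4% rose at day 5, 18 and 32, and 5.72%, 10.5% and 14.2% fell. From day 5 to day 18, 6 of the 10 fibroblast markers fell, where 16.1% of all genes did. After median centring, 3 rose and 2 fell at day 5, and 6 fell at day 32. In the rescue experiment (group means 9.94 to 10.37) 2 of the 10 were higher than in null cells with Ezh1 given first. With Ezh2 given first 3 were (0.861% and 3.15% of all genes). In Ezh2 post-rescue cells 1 was higher than in control cells (0.51% of all genes). Between null and control cells 0 changed in limma (1.95% of all genes), and 5 had an unadjusted p under 0.05 (15.5% of all genes). In the time course 2 of 4 endothelial markers rose at day 5 and 1 at day 32 (group means 3.77 to 4.33), 1 of 3 neuronal markers rose at each of the 3 times (4.33 to 4.65), and 2 of 4 pluripotency markers fell at each (5.07 to 5.37). Their part in the HoxC values was not tested. The arrays of the 2 experiments had been normalized separately (array medians 4.98 to 5.08 and 6.16 to 6.27), so levels are compared within an experiment.

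After tamoxifen the HoxC cluster split. Hoxc4, Hoxc5, Hoxc6 and Hoxc8 were lower than in vehicle cells at day 18 and at day 32, Hoxc5 by 1.90-fold and 1.98-fold, whereas Hoxc9 and Hoxc13 were higher at both days, and Hoxc10 and Hoxc12 at day 18. Throughout, a gene rose or fell when the limma adjusted p over all 18820 genes was under 0.05, at any fold. At day 5, 3 of the 9 genes fell and 0 rose, and 5.72% of all genes fell. At day 18, 4 of the 9 rose and 4 fell, against 15.2% and 10.5% of all genes, and at day 32, 2 rose and 4 fell, against 18.4% and 14.2%. The median log2 change of the 9 genes was -0.13, -0.02 and -0.24 at day 5, 18 and 32, where that of all genes was -0.005, -0.023 and -0.018. No HoxC gene reached a 2-fold change against vehicle.

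**Figure D1:**
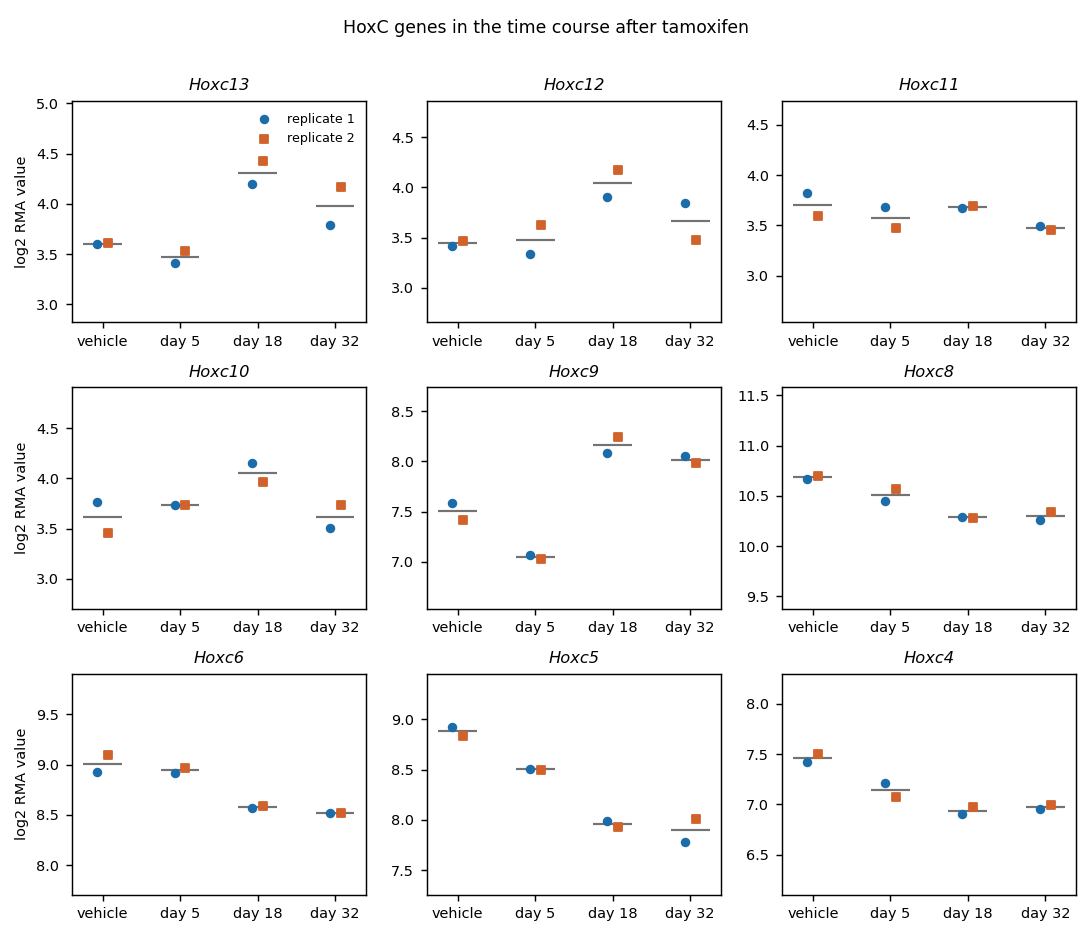
Log2 RMA values (vertical axis, every panel spanning the same number of log2 units) of the 9 HoxC genes in vehicle cells and at day 5, 18 and 32 after tamoxifen, in the order of the cluster. Points are the 2 arrays of a group and bars their mean. In the Hoxc4, Hoxc5, Hoxc6 and Hoxc8 panels the day 18 and day 32 arrays lie below both vehicle arrays, and for Hoxc9 and Hoxc13 they are higher than both.

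Hoxc5, whose paralogue group acts in the neck and upper trunk, fell furthest. The log2 values of its 2 arrays were 8.93 and 8.84 in vehicle cells, 8.51 and 8.50 at day 5, 7.99 and 7.93 at day 18, then 7.78 and 8.01 at day 32. The day 5 arrays lay below vehicle and above day 18, and the day 18 and day 32 arrays overlapped. Against vehicle, limma gave a day 5 log2 change of -0.38 ± 0.088 (SE, n = 2 arrays a group; adjusted p = 0.0172). By day 18 the change was -0.92 ± 0.088, with an adjusted p of 6.51e-05, and by day 32 it was -0.99 ± 0.088, with an adjusted p of 2.84e-05.

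Hoxc4, the gene at the 3′ end of the cluster, behaved alike at a smaller size. It read 7.42 and 7.50 in vehicle cells, 7.21 and 7.07 at day 5, 6.90 and 6.97 at day 18, then 6.96 and 6.99 at day 32. All 6 arrays after tamoxifen lay below both vehicle arrays. The changes were -0.32 ± 0.078 (limma adjusted p = 0.0217), -0.52 ± 0.078 (adjusted p = 0.00100) and -0.49 ± 0.078 (adjusted p = 0.00105) at day 5, 18 and 32.

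Hoxc6, a gene of the thoracic region, did not pass at day 5 and was lower later. Its values were 8.93 and 9.09 in vehicle cells, 8.92 and 8.97 at day 5, 8.57 and 8.59 at day 18, then 8.52 and 8.52 at day 32. The day 5 arrays overlapped vehicle, and the 4 later arrays lay below both groups. The day 5 difference was -0.07, with a 95% interval from -0.24 to 0.11, and the later ones were -0.43 ± 0.079 (limma adjusted p = 0.00303) and -0.49 ± 0.079 (adjusted p = 0.00102).

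Hoxc8, which patterns the thoracic skeleton and motor neurons, read 10.67 and 10.70 in vehicle cells, 10.45 and 10.56 at day 5, 10.29 and 10.28 at day 18, then 10.26 and 10.34 at day 32. The later arrays were again the lowest. Its day 18 change was -0.40 ± 0.075 (limma adjusted p = 0.00373), and that of day 32 was -0.39 ± 0.075 (0.00316). The day 5 difference of -0.18 (95% interval -0.34 to -0.01) did not pass (adjusted p = 0.15).

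Hoxc9, the next gene toward the 5′ end and a determinant of thoracic identity, first fell and then rose. It read 7.59 and 7.42 in vehicle cells, 7.07 and 7.03 at day 5, 8.09 and 8.24 at day 18, then 8.05 and 7.99 at day 32. No 2 groups overlapped, in the order day 18, day 32, vehicle, day 5. The day 5 log2 change was -0.45 ± 0.088, with a limma adjusted p of 0.00757. It turned to 0.66 ± 0.088 by day 18 (adjusted p = 0.000483) and stood at 0.52 ± 0.088 by day 32 (0.00149).

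The day 5 falls rested on few arrays. Without day 5 replicate 2, 0 of the 9 genes passed, and without vehicle replicate 1 only Hoxc4 did. Hoxc9 then had limma adjusted p-values of 0.0539 and 0.0503, Hoxc5 of 0.0833 and 0.0934 (and 0.0784 without day 5 replicate 1), and Hoxc4 of 0.137 without day 5 replicate 2 and 0.0817 without vehicle replicate 2. The day 18 and day 32 changes of Hoxc4, Hoxc5, Hoxc6, Hoxc8 and Hoxc9 kept their call under each alternative that used the same threshold.

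The 5′ genes Hoxc10 to Hoxc13 gave dim signals, below the median of all genes (5.5 to 5.7) on all 8 arrays of the time course, where small changes in background can move a log2 value. Hoxc13, known for its role in hair and nails, read 3.60 and 3.61 in vehicle cells, 3.41 and 3.53 at day 5, 4.20 and 4.43 at day 18, then 3.79 and 4.17 at day 32. The groups did not overlap, and day 18 was the highest. The day 18 change was 0.71 ± 0.126 (limma adjusted p = 0.00267), and the day 32 change 0.37 ± 0.126 (0.0467). The day 32 call was lost without either vehicle array (adjusted p = 0.145 and 0.122), without either day 5 array (0.0648) and without day 32 replicate 2 (0.316), and when arrays were centred on their medians (0.117).

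Hoxc12, which neighbours it, read 3.42 and 3.47 in vehicle cells, 3.34 and 3.63 at day 5, 3.91 and 4.18 at day 18, then 3.85 and 3.48 at day 32. Day 18 stood above the other groups, which overlapped. Its day 18 change was 0.60 ± 0.143 (limma adjusted p = 0.0128) and was lost without day 18 replicate 2 (adjusted p = 0.0996) or vehicle replicate 1 (0.0709).

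Hoxc10, a gene of the lumbar and hindlimb region, read 3.77 and 3.46 in vehicle cells, 3.73 and 3.74 at day 5, 4.15 and 3.96 at day 18, then 3.51 and 3.73 at day 32. Again day 18 was apart and the rest overlapped. The day 18 change of 0.44 ± 0.120 (limma adjusted p = 0.0233) was lost without day 18 replicate 1 (adjusted p = 0.146), without vehicle replicate 2 (0.128) and after median centring (0.0964).

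Hoxc11 passed at no time point. Its 8 arrays ran from 3.45 to 3.82, with neighbouring groups overlapping, and the day 32 difference of -0.24 (95% interval -0.46 to -0.01) had an adjusted p of 0.0992 in limma. It passed without vehicle replicate 2 (adjusted p = 0.0377) and after median centring (0.0277).

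Set directly against day 5, day 18 was higher for 3 of the 9 HoxC genes and lower for 3, where 15.6% of all genes were higher and 16.1% lower. Hoxc9 differed most, by 1.11 ± 0.088 (2.16-fold, limma adjusted p = 1.25e-05), followed by Hoxc13 (0.84 ± 0.126, adjusted p = 0.000688) and Hoxc12 (0.56 ± 0.143, adjusted p = 0.0138). In the other direction went Hoxc5 (-0.54 ± 0.088, adjusted p = 0.00117), Hoxc6 (-0.37 ± 0.079, adjusted p = 0.00559) and Hoxc8 (-0.22 ± 0.075, adjusted p = 0.0498). Hoxc8 lost this call under each of the 8 single-array omissions, with adjusted p from 0.0537 to 0.243, and with a replicate block (0.0598). Hoxc12 lost it without day 18 replicate 2 (0.107) or day 5 replicate 1 (0.110).

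From day 18 to day 32, 0 of the 9 HoxC genes changed in limma, where 4.15% of all genes did. An unadjusted limma p under 0.05 was found for 3 of the 9 and for 18.8% of all genes. The 3 were Hoxc10 (-0.44 ± 0.120, adjusted p = 0.0801), Hoxc12 (-0.38 ± 0.143, adjusted p = 0.187) and Hoxc13 (-0.34 ± 0.126, adjusted p = 0.188), each lower at day 32. For Hoxc4, Hoxc5, Hoxc6 and Hoxc8 the 95% intervals of the difference lay between -0.26 and 0.21.

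Ezh2 null cells of the rescue experiment, set against control cells, also showed lower values at the 3′ end of the cluster. Of the 9 HoxC genes 3 fell and 0 rose, and 0.755% of all genes fell. Hoxc5 read 10.36 and 10.18 in control cells and 8.69 and 8.97 in Ezh2 null cells. That is a gap of over 1 log2 unit between the nearest arrays, and the log2 change was -1.44 ± 0.126 (2.71-fold lower, limma adjusted p = 0.00317). Hoxc4 read 8.64 and 8.61 against 7.94 and 8.02, a change of -0.65 ± 0.110 (adjusted p = 0.0327). Hoxc6 read 10.11 and 10.31 against 9.70 and 9.67, a change of -0.52 ± 0.087 (adjusted p = 0.0303).

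**Figure D2:**
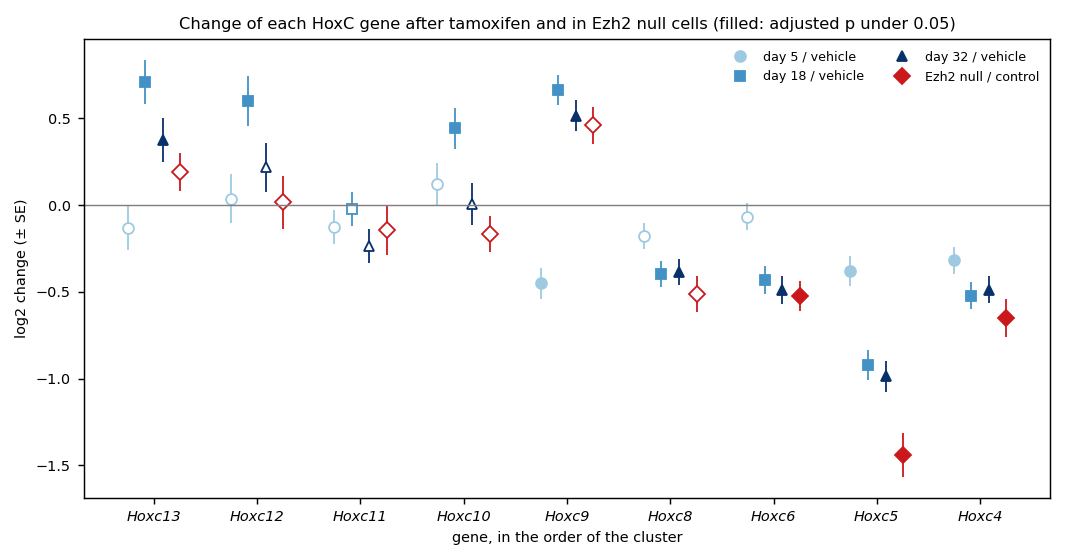
Log2 change with its standard error (vertical axis) of each HoxC gene, in the order of the cluster (horizontal axis), at day 5, 18 and 32 against vehicle and in Ezh2 null against control cells, 2 arrays a group. Filled symbols have a limma adjusted p under 0.05. From Hoxc8 to Hoxc4 the late and null values lie below 0, lowest at Hoxc5 (-0.99 at day 32, -1.44 in null cells), and at Hoxc9 above it.

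Of the others, Hoxc8 and Hoxc9 came nearest to a call. Hoxc8 read 12.09 and 12.02 in control cells and 11.41 and 11.67 in Ezh2 null cells, a difference of -0.51 (95% interval -0.76 to -0.27, limma adjusted p = 0.0618). It passed without the replicate block (0.0288), after median centring (0.0435) and with a trended, robust prior (0.0203). Hoxc9 read 8.46 and 8.36 against 9.01 and 8.73, a difference of 0.46 (95% interval 0.21 to 0.71, adjusted p = 0.0917). For both genes the 2 null arrays lay outside the 2 control arrays.

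For Hoxc10 to Hoxc13 the difference between null and control ran from -0.17 to 0.19, with 95% intervals within -0.48 and 0.45, and signals were below the median of all genes (6.5 to 6.66) on all 10 arrays. The calls of Hoxc4 and Hoxc6 were fragile. Both were lost without either null array, without control replicate 2, and, the estimates staying as they were, when an array of Ezh2 pre-rescue or Ezh2 post-rescue cells was left out of the shared spread; Hoxc6 was lost also without either Ezh1 pre-rescue array. The adjusted p-values were then 0.0520 to 0.0934 for Hoxc4 and 0.0557 to 0.164 for Hoxc6, and without any 1 of the arrays that cost both calls Hoxc5 was the 1 gene of the 9 left past the threshold.

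With Ezh1 or Ezh2 supplied before the deletion, Hoxc5 stood well above its null level. Hoxc5 read 10.01 and 9.94 in Ezh1 pre-rescue cells and 10.12 and 9.86 in Ezh2 pre-rescue cells, all above both null arrays and below both control arrays. Against Ezh2 null cells it was higher by 1.14 ± 0.126 with Ezh1 (2.21-fold, limma adjusted p = 0.0111) and by 1.16 ± 0.126 with Ezh2 (2.23-fold, adjusted p = 0.00614). These calls were lost when either array of the rescued group was left out, with adjusted p of 0.127 and 0.0956 for Ezh1 and 0.0634 and 0.0547 for Ezh2, at estimates from 1.02 to 1.29.

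With Ezh1, Hoxc5 was the 1 HoxC gene that rose against null cells, where 0.861% of all genes rose, and 0 fell. With Ezh2, Hoxc5 and Hoxc8 rose, where 3.15% of all genes rose, and 0 fell. With Ezh2 the Hoxc8 arrays read 12.05 and 12.05, higher than null by 0.51 ± 0.106 (limma adjusted p = 0.0337), and with Ezh1 11.96 and 12.00, a difference of 0.44 ± 0.106 (adjusted p = 0.0707). The Ezh2 difference did not pass under quantile normalization (0.42, adjusted p = 0.0554) or when every probe set was tested (adjusted p = 0.0531). The Ezh2 call for Hoxc8 was lost without Ezh2 null replicate 1 (0.0981) and without any 1 of the pre-rescue or post-rescue arrays (0.0600 to 0.207). Leaving out either control array, which enters these contrasts through the shared spread alone, brought further genes past the threshold. With Ezh1 these were Hoxc6 (0.30) and Hoxc8 (0.44), both higher than null. With Ezh2 they were Hoxc6, higher than null (0.32), and Hoxc9, lower than null (-0.45).

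Set against control cells, 0 of the 9 HoxC genes changed in Ezh1 pre-rescue cells in limma, where 0.0106% of all genes did. In Ezh2 pre-rescue cells 0 changed, where 0.0% of all genes did. An unadjusted limma p under 0.05 was found for 3 and 1 of the 9, and for 9.76% and 10.2% of all genes. The 3 were Hoxc4, Hoxc5 and Hoxc6 and the 1 was Hoxc4, each lower than control. The added Ezh2 differed from control by 1.59 ± 0.173 in Ezh2 pre-rescue cells and did not pass (limma adjusted p = 0.183). In Ezh1 pre-rescue cells the added Ezh1 passed (2.10, adjusted p = 0.0270). A count of 0 here therefore does not show a return to control. The widest gap was that of Hoxc4, which read 8.18 and 8.30 with Ezh1 and 8.28 and 8.08 with Ezh2, below both control arrays. Its differences from control were -0.39 (95% interval -0.65 to -0.13, adjusted p = 0.324) and -0.45 (95% interval -0.71 to -0.19, adjusted p = 0.290). Hoxc9 lay at 8.50 and 8.60 with Ezh1 and at 8.49 and 8.36 with Ezh2, differing from control by 0.14 (95% interval -0.12 to 0.39) and 0.01 (95% interval -0.24 to 0.27).

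The enzymes were also set against each other. Between Ezh1 and Ezh2 pre-rescue cells 0 of the 9 HoxC genes changed in limma, where 0.00531% of all genes did. An unadjusted limma p under 0.05 was found for 0 of the 9 and for 1.12% of all genes. For Hoxc5 the difference was -0.01 (95% interval -0.30 to 0.28), for Hoxc8 -0.07 (95% interval -0.31 to 0.18) and for Hoxc9 0.12 (95% interval -0.13 to 0.38). With 2 arrays a group, differences inside these intervals are not excluded.

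**Figure D3:**
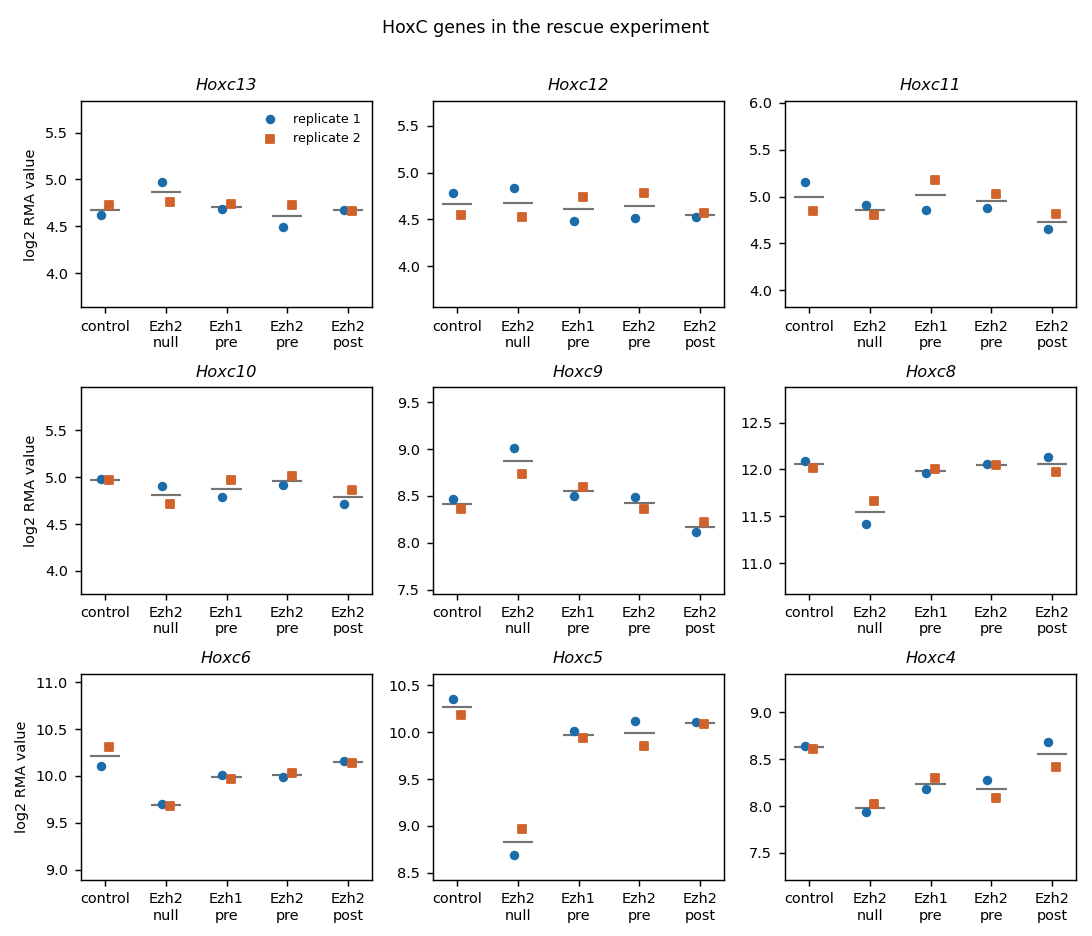
Log2 RMA values (vertical axis, every panel spanning the same number of log2 units) of the 9 HoxC genes in control, Ezh2 null, Ezh1 pre-rescue, Ezh2 pre-rescue and Ezh2 post-rescue cells, in the order of the cluster. Points are the 2 arrays of a group and bars their mean. The null arrays are the lowest for Hoxc4, Hoxc5, Hoxc6 and Hoxc8 and the highest for Hoxc9.

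Ezh2 returned after the deletion was followed by HoxC values near those of control cells. Hoxc5 read 10.11 and 10.08 in Ezh2 post-rescue cells, 1.27 ± 0.126 above null (2.41-fold, limma adjusted p = 0.0118). Hoxc9 read 8.11 and 8.22, the lowest group of that gene, 0.70 ± 0.109 below null (1.63-fold lower, adjusted p = 0.0459). These were 1 gene that rose and 1 that fell against null cells, where 0.191% of all genes rose and 0.409% fell.

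Hoxc4 (8.69 and 8.42), Hoxc6 (10.16 and 10.14) and Hoxc8 (12.13 and 11.97) lay above both null arrays in post-rescue cells without passing. Their differences from null were 0.57 (95% interval 0.31 to 0.83, limma adjusted p = 0.0777), 0.46 (95% interval 0.26 to 0.66, adjusted p = 0.0740) and 0.51 (95% interval 0.27 to 0.76, adjusted p = 0.0887). Without the replicate block all 3 passed, and 5 of the 9 genes were called. The Hoxc5 call was lost without either post-rescue array (adjusted p = 0.140 and 0.113). The Hoxc9 call was lost under 8 of the 10 single-array omissions (0.0548 to 0.409), under quantile normalization (0.0514) and after median centring (0.0523), with the estimate between -0.57 and -0.84.

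Against control cells, 0 of the 9 HoxC genes changed in Ezh2 post-rescue cells in limma, where 0.707% of all genes did. An unadjusted limma p under 0.05 was found for 0 of the 9 and for 9.51% of all genes. The differences were -0.17 for Hoxc5 (95% interval -0.47 to 0.12), -0.08 for Hoxc4 (-0.34 to 0.18), -0.06 for Hoxc6 (-0.27 to 0.14), -0.001 for Hoxc8 (-0.25 to 0.25) and -0.24 for Hoxc9 (-0.50 to 0.01). Between post-rescue and Ezh2 pre-rescue cells 0 of the 9 changed, where 0.882% of all genes did. An unadjusted limma p under 0.05 was found for 2 of the 9 and for 14.4% of all genes. The 2 were Hoxc4, higher after the later rescue by 0.37 (adjusted p = 0.182), and Hoxc9, lower by 0.26 (adjusted p = 0.341).

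**Figure D4:**
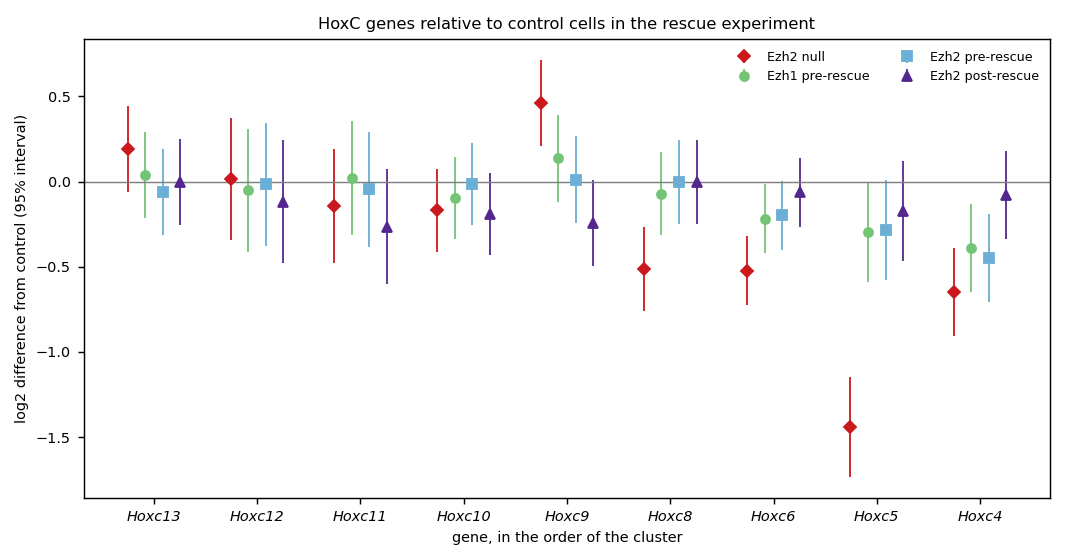
Difference from control cells on the log2 scale (vertical axis), with its 95% interval, for each HoxC gene in the order of the cluster (horizontal axis), in Ezh2 null, Ezh1 pre-rescue, Ezh2 pre-rescue and Ezh2 post-rescue cells, 2 arrays a group. Hoxc5 stands at -1.44 in null cells and between -0.30 and -0.17 in the rescued ones, and the post-rescue intervals of all 9 genes include 0. The intervals of Hoxc4 lie below 0 in both pre-rescue groups, and those of Hoxc5 and Hoxc6 in Ezh1 pre-rescue cells.

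The effect in Ezh2 null cells was compared with the effect at day 32 in 1 fit over both experiments. For 0 of the 9 HoxC genes did the effects differ in limma, where 8.12% of all genes differed. An unadjusted limma p under 0.05 was found for 1 of the 9 and for 21.1% of all genes. That 1 was Hoxc5, whose fall in null cells exceeded the day 32 fall by 0.45 ± 0.159 (adjusted p = 0.109), and it passed without null replicate 2 (-0.66, adjusted p = 0.0154). For Hoxc6 and Hoxc9 the difference of effects was -0.03 (95% interval -0.28 to 0.22) and -0.06 (95% interval -0.37 to 0.25).

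The other Hox clusters were read in the same comparisons, where 15.2%, 18.4% and 1.2% of all genes rose at day 18, at day 32 and in Ezh2 null cells and 10.5%, 14.2% and 0.755% fell. Of 9 HoxB genes, 5 rose at day 18, 6 at day 32 and 4 in Ezh2 null cells, and 0 fell. Of 8 HoxD genes 4, 3 and 1 rose, and 0 fell. Of 10 HoxA genes, 1 rose and 2 fell at day 18, 2 rose and 2 fell at day 32, and 1 rose in null cells. These counts include genes whose paralogue number has no HoxC gene. The HoxB counts in these 3 comparisons were the same after median centring and after quantile normalization of the arrays, a check added after seeing the data. The other clusters shifted downward with centring: 5 HoxA genes fell at day 18 and at day 32 and 1 in null cells, and 1 HoxD gene fell at day 18 and at day 32.

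Hoxb5, the HoxB counterpart of Hoxc5, rose by 2.41 at day 18, 2.51 at day 32 and 1.45 in null cells on the log2 scale (limma adjusted p = 1.09e-06, 6.00e-07 and 0.00906), where Hoxc5 fell. Hoxb6 rose by 1.86, 1.92 and 1.35 (adjusted p = 9.86e-05, 5.59e-05 and 0.00993), where Hoxc6 fell. Hoxd8 rose by 0.97 at day 18 and 0.82 at day 32, where Hoxc8 fell, and Hoxd4 by 0.70 and 0.62, where Hoxc4 fell. Neither passed in null cells (limma adjusted p = 0.375 and 0.485). Hoxa6 rose at day 32 alone (0.49, adjusted p = 0.00437). Hoxa4 (-0.28 and -0.32 at day 18 and 32) and Hoxb4 (0.20 and 0.27) passed in none of these comparisons. Hoxa5 fell with Hoxc5 at day 18 and day 32 (-0.36 and -0.39) and did not pass in null cells (-0.42, limma adjusted p = 0.571).

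In the group of Hoxc9 and in that of Hoxc13 the HoxB gene gave larger values of the same sign. Hoxb9 rose by 4.05, 4.22 and 3.63 at day 18, at day 32 and in null cells, against 0.66, 0.52 and 0.46 for Hoxc9, and Hoxb13 by 3.00, 2.36 and 1.79, against 0.71, 0.37 and 0.19 for Hoxc13. Hoxa9 and Hoxd9 did not pass in these 3 comparisons. Hoxa10 and Hoxd10 rose in each of them, by 0.91 to 1.32, where Hoxc10 rose at day 18 alone. Differences between paralogues were not tested.

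The HoxB genes were also read after the later rescue. Of 9 HoxB genes, 4 were higher in Ezh2 post-rescue than in control cells (0.51% of all genes) and 1, Hoxb13, fell against null cells (by 1.15, limma adjusted p = 0.00620), where 0 of the 9 HoxC genes differed from control. With either rescaling the HoxB count against control was 3. Hoxb9 differed from null by -0.62 (95% interval -1.76 to 0.53) and Hoxb5 by 0.62 (95% interval 0.22 to 1.01, adjusted p = 0.166). The contrast of the clusters is a pair of counts, and its difference was not tested.

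**Figure D5:**
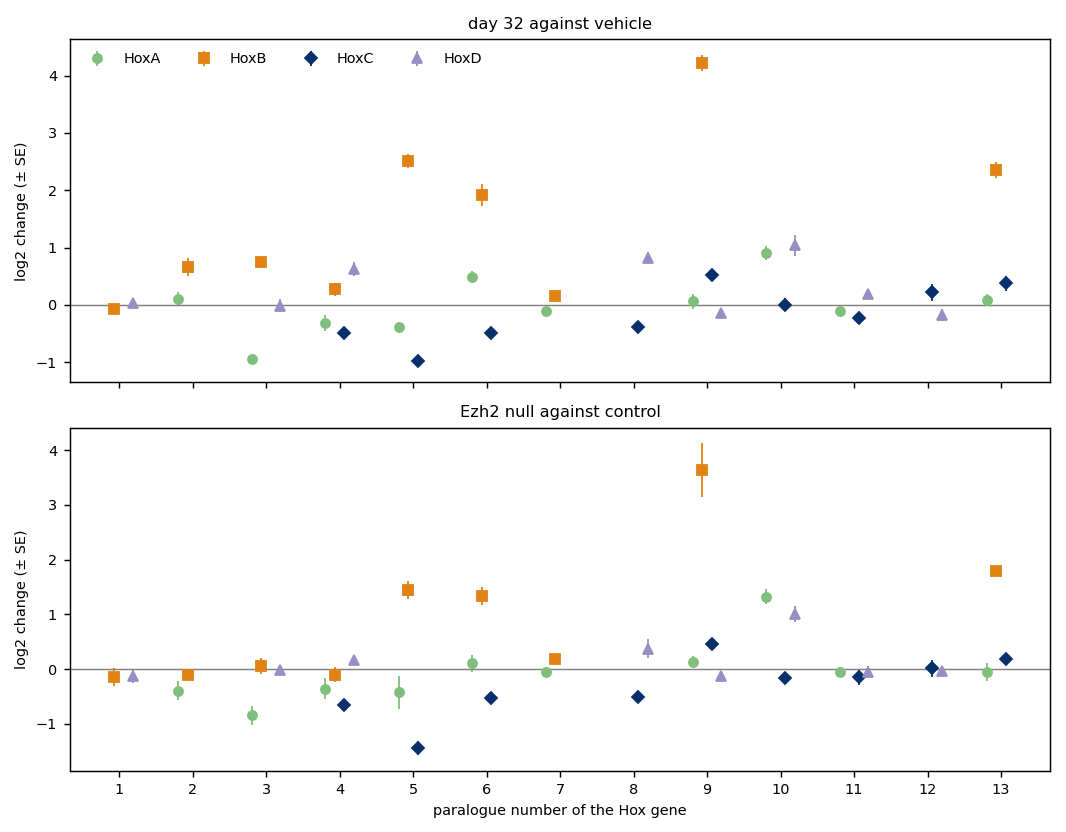
Log2 change with its standard error (vertical axis) of the 36 Hox genes measured, by paralogue number (horizontal axis) and cluster, at day 32 against vehicle and in Ezh2 null against control cells, 2 arrays a group. HoxC symbols of paralogue numbers 4 to 8 lie below 0, Hoxb5 and Hoxb6 above 1 and Hoxb9 above 3 in both panels.

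The microRNA genes inside the cluster and the genes around it were read next. Mir615, within Hoxc5, read 5.41 and 5.26 in vehicle cells, 4.95 and 5.48 at day 5, 5.18 and 4.96 at day 18, then 4.73 and 4.87 at day 32. It was lowest at day 32, where it fell by 0.53 ± 0.157 on the log2 scale (limma adjusted p = 0.0271). In Ezh2 null cells it differed from control by -0.23 ± 0.172 (adjusted p = 0.588). Mir196a-2 was dim (2.41 to 2.58 over the time course) and passed in no comparison. These probe sets read precursor or host transcripts, not the mature microRNAs.

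Of 23 measured genes within 500000 bases of the cluster, 2 rose and 4 fell at day 18, 5 rose and 4 fell at day 32, and 0 changed in null cells in limma, where 4 had an unadjusted p under 0.05. The day 18 and day 32 counts lie near the shares of all genes that rose (15.2% and 18.4%) and fell (10.5% and 14.2%). At day 5, 0 of the 23 rose and 6 fell, where 11.0% of all genes rose and 5.72% fell. That day 5 departure was not tested. In null cells 1.95% of all genes changed, and 15.5% had an unadjusted limma p under 0.05. With arrays centred on their medians, 1 rose and 11 fell at day 18, and 3 rose and 8 fell at day 32. The nearest on the Hoxc13 side, Calcoco1, a coactivator gene 198953 bases away, read 8.92 and 8.99 in vehicle cells and 7.44 and 7.53 at day 32. It fell by 1.47 ± 0.102 on the log2 scale there (limma adjusted p = 6.50e-06). In the rescue experiment its group means were 10.11 in control, 9.56 in null, 10.45 in Ezh1 pre-rescue, 10.59 in Ezh2 pre-rescue and 10.34 in post-rescue cells. With either enzyme given first it was the 1 flanking gene that rose against null cells (0.861% and 3.15% of all genes rose). The nearest on the Hoxc4 side, Smug1, a DNA repair glycosylase gene 116434 bases away, differed from vehicle by 0.14 ± 0.073 (adjusted p = 0.177). Cbx5, which encodes the heterochromatin protein HP1 alpha, lay next to it and rose by 0.58 ± 0.074 at day 32 (adjusted p = 0.000243). RefSeq leaves 667 bases between Hoxc5 and Hoxc4 and 2125 between Hoxc6 and Hoxc5, and transcripts shared by these neighbours were not tested.

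Genes whose products work with HOX proteins moved in the time course. Of 8 measured cofactor genes of the PBX, MEIS and PKNOX families, which bind DNA beside HOX proteins, 5 rose and 1 fell at day 18 and at day 32, with a median log2 change of 0.34 and 0.23, where 15.2% and 18.4% of all genes rose and their median change was -0.023 and -0.018. Meis1 rose by 0.57 ± 0.087 at day 18 and Meis2 by 0.44 ± 0.073 (limma adjusted p = 0.00108 and 0.00171), and Pknox2 fell by 1.17 ± 0.113 (adjusted p = 6.92e-05). After median centring 4 rose at day 18 and 1 at day 32, and Meis2 no longer passed at day 32 (0.25 as deposited, adjusted p = 0.0250, against 0.13 and 0.204). In Ezh2 null cells 0 of the 8 changed in limma and 0 had an unadjusted p under 0.05, where 1.95% and 15.5% of all genes did. Beside these shares, the 0 counts are no result about the list.

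Of 10 measured PRC2 genes, 5 rose and 3 fell at day 32 (18.4% and 14.2% of all genes), and 1, the accessory subunit gene Phf19, rose in null cells (1.22 ± 0.086, limma adjusted p = 0.00143). The 5 include Ezh2 itself (0.38 ± 0.084, adjusted p = 0.0068), whose probe set gives no check of the deletion. The 3 include Ezh1, which fell by 0.63 ± 0.077 at day 18 and 0.99 ± 0.077 at day 32 (adjusted p = 0.000277 and 1.21e-05). In null cells Ezh1 differed from control by -0.31 ± 0.157 (adjusted p = 0.398). The H3K27 demethylase genes Kdm6a and Kdm6b both fell at day 32 (-0.27 and -0.69). Of 9 genes of the H3K4 methyltransferase complexes, which counter Polycomb at Hox loci, 2 rose at day 18 and 3 at day 32, Dpy30 by 0.47 ± 0.075 and 0.60 ± 0.075. Of 16 other genes of limb and axial position, 3 rose at day 18 and 2 at day 32, with Prrx2 at 1.48 ± 0.100 and 1.27 ± 0.100. Against the 15.2% and 18.4% of all genes that rose, these small counts are no result about either list. In null cells 0 of these 16, 0 of the 9 and 0 of the 2 demethylase genes changed in limma (1.95% of all genes). An unadjusted limma p under 0.05 was found for 2, 0 and 0 of them, and for 15.5% of all genes. Prrx2 stood at 0.91 there (adjusted p = 0.0646) and passed after median centring (0.0282) and quantile normalization (0.0359). Centring also turned the PRC2 counts at day 18 from 5 up and 2 down to 2 up and 4 down, and the H3K4 counts from 2 up and 0 down to 1 each way. For the limb and axial genes it gave 3 up and 3 down at day 18.

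Genes with the most similar pattern were sought for the members whose group means spanned 1 log2 unit or more. Over the 10 rescue arrays the gene most like Hoxc5 was Lsm10 (Pearson r = 0.9583), followed by its cluster neighbour Hoxc8 (0.9529) and by Ccdc65 (0.9514). Hoxc6 and Hoxc4 followed Hoxc5 at 0.8879 and 0.7902, and Hoxc9 ran against it at -0.8108. Over the 8 time course arrays the genes most like Hoxc9 were Atp5o (0.9959), Rspo4 (0.993) and Cdkn2c (0.9914), and Hoxc13 was at 0.8875 and Hoxc6 at -0.8579. The arrays of an experiment share groups and normalization, so these values are a description.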

How the data were processed

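Total RNA of clone C2 was hybridized to Affymetrix mouse gene arrays by the authors, who deposited log2 values made by RMA in the R package oligo. The study's methods add a batch correction with limma for the rescue experiment, where the first and second replicates formed batches; whether the deposited values already carry it is not given in the sources used here. The median absolute difference between the replicates' means per gene was 0.0309 in the rescue experiment and 0.045 in the time course. For the array data a genome build is not given in the sources used here. Of 28440 probe sets, 21217 had 1 gene symbol, 1881 several and 5342 none; 21184 matched RefSeq by gene identifier, and the probe set with the highest mean stood for each of 18820 genes. Arrays carry no read depth, and their number (2 a group) limits the precision. limma 3.58.1 (R 4.3.3; lmFit and eBayes) was fitted to 8 arrays (4 residual and 5.27 prior degrees of freedom), to 10 arrays with the replicate as a block (4 and 3.62), and to all 18 for the difference of effects (8 and 4.89), with Benjamini-Hochberg adjustment over all genes. The fit was tested on simulated data. The replicate number pairs the rescue arrays because the methods name it as a batch. The deviations of same-numbered arrays from their group means correlated at -0.429 to 0.544 over 10 pairs of groups there. Of these 10 correlations, 6 were negative. The study used RankProduct, which was not run. Named were the 9 members, Ezh2, Ezh1, up to 4 genes of each list, the nearest flanking genes and paralogues. Members and lists were chosen with earlier results of these data known. Alternatives were other scalings, filters, priors, thresholds, the block, and leaving out each array. A comparison of homeodomains was not run.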

Additional observations from a re-analysis of the deposited data

Results flagged for a closer look

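For 6 of the 9 HoxC genes the effect of tamoxifen against the shared vehicle arrays differed between day 18 and day 5 by limma's test of that difference. Of all genes 15.6% were higher and 16.1% lower at day 18 than at day 5. The difference, day 18 minus day 5 on the log2 scale, was 0.84 for Hoxc13, 0.56 for Hoxc12 and 1.11 for Hoxc9. It was -0.22 for Hoxc8, -0.37 for Hoxc6 and -0.54 for Hoxc5. The Hoxc8 call (limma adjusted p = 0.0498) was lost whichever array of the time course was left out. That of Hoxc12 (0.0138) was lost without day 18 replicate 2 or day 5 replicate 1. Hoxc9 lay below vehicle on both arrays at day 5 and above it on both at day 18, whereas Hoxc5, Hoxc6 and Hoxc8 had lower means than vehicle at both days. None of the 9 genes differed in this way between day 32 and day 18 or between Ezh2 null cells and day 32. An unadjusted limma p under 0.05 was found there for 3 and 1 of the 9, and for 18.8% and 21.1% of all genes. Groups of 2 arrays allow no test for a single outlying array.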

How the results depend on the processing

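Of 31 gene values past the threshold, 16 stayed past it under every alternative run at the same threshold, among them Hoxc5 in Ezh2 null cells and Hoxc4, Hoxc5, Hoxc6, Hoxc8 and Hoxc9 at day 18 and day 32. None reversed. Of 478 recomputed values, 75 fell short, 63 of them when 1 array was left out. A further 83 values changed sign while past the threshold in neither setting, none larger than 0.198.

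The study's threshold (adjusted p under 0.15 and at least 2-fold) and a 2-fold limit at 0.05 both left 0 HoxC genes at day 5, 18 and 32 and 1 each for day 18 against day 5, null against control, and Ezh1 pre-rescue, Ezh2 pre-rescue and post-rescue against null. Testing every probe set gave 1 gene for null against control and 1 for Ezh2 pre-rescue and for post-rescue against null, and median centring 1 for the last. Centring moved the median change of all genes from -0.005, -0.023 and -0.018 to -0.154, -0.180 and -0.137 at day 5, 18 and 32, and the members that rose and fell there became 0 and 4, 3 and 4, and 1 and 5. A trended robust prior gave 1 gene for day 32 against day 18, 2 for Ezh1 pre-rescue and 4 for post-rescue against null.

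Without the replicate block 2, 4 and 5 genes passed for Ezh1 pre-rescue, Ezh2 pre-rescue and post-rescue against null, and 4 for null against control. With a block in the time course the counts were 3, 8 and 6 at day 5, 18 and 32 and 5 for day 18 against day 5; same-numbered arrays there deviated with correlations of -0.0699 to 0.0549, so they share only a number.

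Leaving out 1 array gave 0 to 3 genes at day 5, 7 to 8 at day 18, 5 to 6 at day 32, 4 to 6 for day 18 against day 5, 1 to 3 for null against control, 0 to 3, 0 to 4 and 0 to 3 for Ezh1 pre-rescue, Ezh2 pre-rescue and post-rescue against null, and 0 to 1 for null against day 32 effects. It gave 0 in the other comparisons. A group left with 1 array was assumed to vary like the rest.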
